A study of Mus musculus with 12 samples.

Results

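The genes described here are 7 transcription factors of the developing cerebral cortex, taken by gene symbol from the 51912 genes listed for each library: the NeuroD genes Neurod1, Neurod2 and Neurod6 and the nuclear factor I (NFI) genes Nfia, Nfib, Nfic and Nfix. No cutoff on a measured value was used to pick them, though earlier results of these data were known. Expression was measured in 12 samples of mouse cortex dissected at embryonic day 15.5 (E15.5), 6 labelled as Emx1-Cre Arid1a conditional mutants and 6 labelled as controls. Emx1-Cre recombines in progenitors of the dorsal forebrain and their progeny, so cells that enter the cortex from elsewhere, such as interneurons, keep the intact gene; the Arid1a protein is part of the BAF complex, which moves nucleosomes. The alleles the controls carry, and whether each library is a different embryo, are not given in the labels, so p-values measure the spread between these samples.

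All samples were labelled batch 1 and came from 2 litters. Litter 1 gave mutants 1 and 2, both female, and controls 1 to 4, of which control 1 was female and the other three male. Litter 2 gave mutants 3 to 6, of which mutant 4 was male and the others female, and controls 5 (male) and 6 (female). Gene counts per library ran from 643197 in mutant 1 to 3525121 in mutant 3, and 15193 to 17868 genes were detected. Depth went in part with genotype. Mutants 1, 4, 2 and 6 were the shallowest libraries, at 643197, 794716, 924066 and 1070000 counts, while controls ran from 1476478 to 2815042. Levels are given in CPM, a gene's counts divided by the TMM-adjusted size of its library (TMM: trimmed mean of M values). The Arid1a level was 447 ± 51.0 CPM in the mutants (SD, n = 6) against 510 ± 42.3 CPM for controls (SD, n = 6), a log2 difference of -0.30 (SE 0.0958, edgeR adjusted p = 0.277), and the deposited values do not show which exons its counts came from. Among markers of dorsal cortex, mean CPM, mutants first, was 217 and 216 for Tbr1 and 54.2 and 49.2 for Emx1.

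NeuroD proteins are basic helix-loop-helix (bHLH) activators that pair with E proteins and bind E-boxes in the enhancers of neuronal genes. They act downstream of the proneural neurogenins, and Neurod1, Neurod2 and Neurod6 mark successive steps of glutamatergic neuron differentiation in the cortex. NFI proteins bind DNA as dimers at a palindrome, are made by radial glia and by young cortical neurons, and are needed for the switch to gliogenesis, for the midline glia and for the corpus callosum and hippocampal commissure.

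Windows of 250 bases upstream of annotated starts (RefSeq, GRCm38.p6) were read for 6 of the 7 genes, 9 windows in all, 4 of them for Nfix. The 5 printed are those that held a NeuroD-type E-box (CAGATG, or CATCTG on the other strand) or 1 arm of the NFI palindrome (TTGGC, or GCCAA on the other strand). Capitals mark these matches, and each window is written 5′ to 3′ on the strand of its gene.
Neurod2: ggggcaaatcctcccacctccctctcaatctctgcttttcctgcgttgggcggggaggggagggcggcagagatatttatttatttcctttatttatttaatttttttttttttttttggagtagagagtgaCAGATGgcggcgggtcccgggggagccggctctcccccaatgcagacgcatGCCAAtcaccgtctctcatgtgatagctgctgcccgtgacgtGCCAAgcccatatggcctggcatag
Neurod6: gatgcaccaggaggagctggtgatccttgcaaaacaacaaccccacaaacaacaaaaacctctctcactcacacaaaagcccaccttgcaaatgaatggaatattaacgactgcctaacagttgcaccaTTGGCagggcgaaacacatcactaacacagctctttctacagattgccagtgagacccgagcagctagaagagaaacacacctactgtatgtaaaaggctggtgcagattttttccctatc
Nfia: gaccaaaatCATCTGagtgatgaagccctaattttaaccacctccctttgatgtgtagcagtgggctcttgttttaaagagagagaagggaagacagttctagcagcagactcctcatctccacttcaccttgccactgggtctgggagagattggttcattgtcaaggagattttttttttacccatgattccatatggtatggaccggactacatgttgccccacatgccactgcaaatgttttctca
Nfix, window 1: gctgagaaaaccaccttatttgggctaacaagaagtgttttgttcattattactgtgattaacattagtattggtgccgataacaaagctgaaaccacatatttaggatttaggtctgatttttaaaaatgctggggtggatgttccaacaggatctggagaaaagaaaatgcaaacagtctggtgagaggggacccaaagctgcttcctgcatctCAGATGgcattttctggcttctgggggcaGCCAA
Nfix, window 2: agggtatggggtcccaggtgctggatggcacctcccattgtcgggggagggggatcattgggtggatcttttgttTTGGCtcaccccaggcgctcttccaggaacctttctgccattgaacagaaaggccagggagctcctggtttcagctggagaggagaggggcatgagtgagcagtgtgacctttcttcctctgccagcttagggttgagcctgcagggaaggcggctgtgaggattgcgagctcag
The Neurod2 window lies at chr11:98329646-98329895 on the minus strand and held 1 E-box and 2 NFI arms. That of Neurod6, at chr6:55681264-55681513 on the minus strand, held 1 NFI arm and no E-box. The Nfia window, at chr4:97581693-97581942 on the plus strand, held 1 E-box and no NFI arm. This RefSeq start lies far upstream of the Nfia gene start in GENCODE M21, at chr4:97772734. The window lies within the span of E130114P18Rik, a gene on the opposite strand at chr4:97568133-97778078. Window 1 of Nfix, at chr8:84772876-84773125 on the minus strand, held 1 E-box and 1 NFI arm, and its window 2, at chr8:84775829-84776078 on the same strand, held 1 NFI arm. All Nfix windows and that of Nfic lie inside the spans of their genes in GENCODE M21. The other 2 Nfix windows and those of Neurod1 and Nfic held neither motif, and the full palindrome, TTGGC and GCCAA with 5 bases between, was in none of the members' windows. Among 32851 windows of the same length, 14.4% held the E-box, 41.5% an NFI arm and 0.0365% the palindrome, all searched on both strands. These matches describe the letters only; binding was not measured.

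Neurod1, the earliest acting of these NeuroD genes in intermediate progenitors and newborn neurons, was listed at 0 in all 12 libraries, and this 0 cannot be read as absence of its RNA. The gene (ENSMUSG00000034701.9, GRCm38 chr2:79452521-79456751, minus strand) lies wholly inside Cerkl, a ceramide kinase-like gene on the same strand, and 201 of its 2729 exon bases are also Cerkl exon. Cerkl itself had 125 counts over the 12 libraries. The same held for nearly every gene so placed: of 249 protein-coding genes inside another gene on the same strand with no shared exon bases, 248 (99.6%) were at 0 in all libraries, and of 170 that shared exon bases, 168 (98.8%). Of 723 protein-coding genes nested on the opposite strand only, 283 (39.1%) were at 0, close to the 3928 of 12146 (32.3%) that overlapped no other gene. The counts therefore behaved as counts over whole gene spans on 1 strand, with reads in same-strand overlaps given to no gene. Tubb3 and Pou3f3, 2 neuronal genes in the same position, were at 0 as well.

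**Figure D1:**
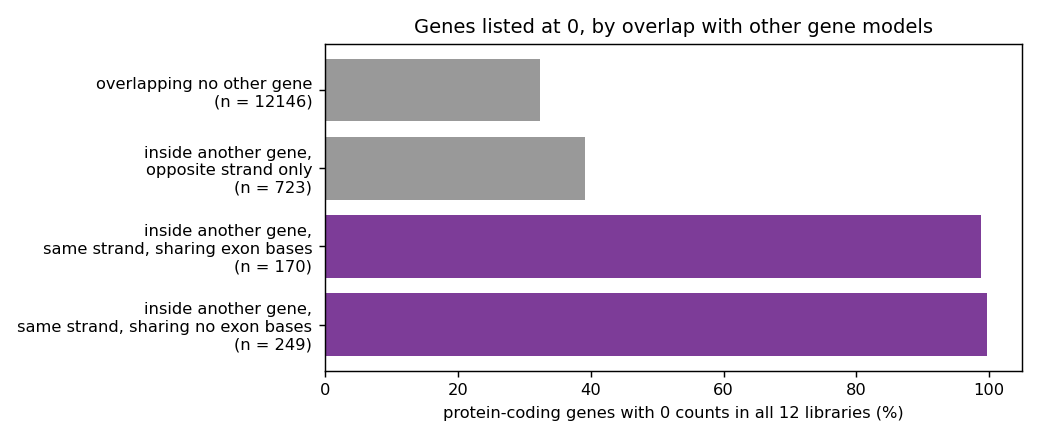
Share of protein-coding genes with 0 counts in all 12 libraries (x axis, percent), by how the gene overlaps other annotated genes (y axis, number of genes in parentheses). Genes nested on the same strand, the class that holds Neurod1, stand at 98.8% and 99.6%, against 32.3% for genes that overlap no other gene.

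The other 6 genes were counted in every library. None of them is nested on the same strand in another gene. Gm11266, an antisense gene inside Nfib on the opposite strand, had 2837 counts of its own over the 12 libraries, beside 86660 for Nfib. The smallest total was that of Nfic, 805 counts over 12 libraries and 21 to 119 in each, and the next that of Neurod6, with 3060 counts and 80 to 473 in each.

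By mean CPM over the 12 libraries, Nfib ranked 11 among the 10678 genes tested and Nfia ranked 25. They were followed by Nfix at rank 118, Neurod2 at 1052, Neurod6 at 1611 and Nfic at 5127. Compared per length, the order depended on the length used. Per kb of exon, Nfib stood at 248 ± 50.5 CPM and Nfia at 216 ± 54.3 CPM (SD, n = 12), within each other's spread. Nfix stood at 129.9 ± 46.0 CPM per kb of exon, Neurod6 at 62.8 ± 16.9 and Neurod2 at 61.3 ± 14.2, the latter pair within 1 SD of each other, and Nfic was lowest at 5.40 ± 1.28 (SD, n = 12). The NFI genes have long introns and the NeuroD genes short ones, and whole spans appear to have been counted. Per kb of gene span, Neurod2 came first at 45.5 ± 10.5 CPM and Neurod6 next at 39.2 ± 10.5 (SD, n = 12). Nfix at 9.51 ± 3.36, Nfib at 8.94 ± 1.82 and Nfia at 6.81 ± 1.71 CPM per kb of span followed, with neighbours within their spread, and Nfic was again lowest at 0.602 ± 0.143 (SD, n = 12).

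The comparison of mutants with controls asks whether the Arid1a genotype goes with a different level of these factors in the E15.5 cortex. None of the 6 measured genes passed the test (edgeR quasi-likelihood, litter and sex in the model, adjusted p under 0.05), where 23 of the 10678 genes tested did (0.215%). DESeq2 and limma-voom called none of the 6 either. All 6 estimates were negative, beside 50.1% of all genes, though the raw means of Neurod2 and Nfia were higher in mutants than in controls. Nfib and Nfic had an unadjusted p under 0.05 in edgeR, 2 of 6 beside 8.78% of all genes. DESeq2 gave 3 of 6 (Nfib, Neurod6 and Nfix) and limma-voom 3 of 6 (Nfib, Neurod6 and Nfic). The shares of all genes under that p in DESeq2 and limma-voom were not counted, so these counts cannot be weighed. In bulk tissue, fewer cells that make a factor and less of its RNA per cell cannot be told apart.

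**Figure D2:**
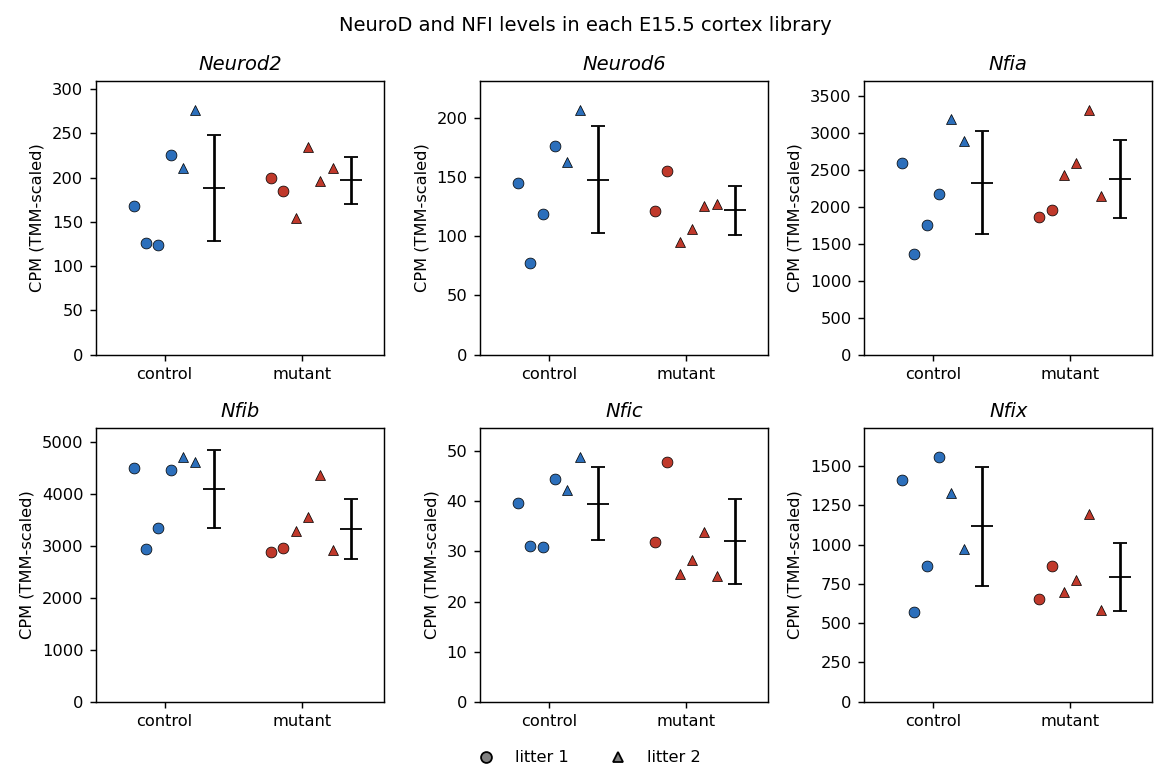
CPM (y axis, TMM-scaled, from 0) of the 6 measured genes in each control (blue) and mutant (red) library; circles are litter 1, triangles litter 2, and black bars show mean ± SD, n = 6. Control and mutant values overlap in every panel.

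Among the NeuroD genes, Neurod2 (ENSMUSG00000038255.6, GRCm38 chr11:98325415-98329648) drives maturation and axon growth of cortical projection neurons. Its level was 154 CPM at the lowest, 197.6 at the median and 235 at the highest mutant, against 124, 189.5 and 276 in controls. The mutant range lay wholly inside the control range. The means were 197 ± 26.9 and 188 ± 60.1 CPM (± SD, n = 6 per group), and the fit gave a log2 difference of -0.09 (SE 0.214, 95% interval -0.57 to 0.38, edgeR adjusted p = 0.975). The sign of the fitted difference is opposite to that of the raw means because litter and sex are in the model, and it changed with the model, so no direction is read from it.

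Neurod6 (ENSMUSG00000037984.9, GRCm38 chr6:55677822-55681263) acts in young projection neurons, partly in place of Neurod2, in the choice of callosal axon routes. Mutant levels were 95.2 CPM at the lowest, 123.5 at the median and 155 at the highest, and control levels 77.7, 154 and 207. Control 2 was the lowest of all libraries, while controls 4, 5 and 6 were the 3 highest. The means were 122 ± 20.5 and 148 ± 45.4 CPM (± SD, n = 6 per group). The log2 difference was -0.49 (SE 0.239, 95% interval -1.02 to 0.04, edgeR adjusted p = 0.611).

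Within litter 2 alone, all 4 mutants lay between 95.2 and 127 CPM of Neurod6, below controls 5 and 6 at 163 and 207 CPM. Nfib (mutants up to 4375 CPM, controls from 4623) and Nfic (mutants up to 33.8 CPM, controls from 42.2) were separated likewise in litter 2. Neurod2, Nfia and Nfix overlapped there. The share of all genes with such a separation among the 6 libraries of litter 2 was not counted. Fitted on those 6 libraries, Neurod6 was lower in mutants by a log2 difference of -0.76 (SE 0.141, edgeR adjusted p = 0.0294), the one call among the members there, where 64 of 11154 genes tested were called (0.574%). In litter 1 the difference was -0.07. The litter by genotype term for Neurod6 was -0.70 (SE 0.398, edgeR adjusted p = 0.761), so a difference between the litters was not shown. Litter 1 held no male mutant, so its fitted difference sets mutants 1 and 2 against control 1.

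Of the NFI genes, Nfib (ENSMUSG00000008575.17, GRCm38 chr4:82290173-82705750), required for callosal midline structures and for progenitor differentiation, gave the smallest p. Mutant 1 had 2882 CPM, mutant 2 had 2961, mutant 3 had 3285, mutant 4 had 3556, mutant 5 had 4375 and mutant 6 had 2923. Control 1 had 4512 CPM, control 2 had 2947, control 3 had 3345, control 4 had 4466, control 5 had 4705 and control 6 had 4623. Controls 1, 4, 5 and 6 stood above every mutant, while controls 2 and 3 lay among the mutants. The means were 3330 ± 574 and 4100 ± 754 CPM (± SD, n = 6 per group), a log2 difference of -0.45 (SE 0.145, 95% interval -0.75 to -0.14, edgeR adjusted p = 0.286). With no filter on low counts Nfib passed the test at -0.48 (edgeR adjusted p = 0.000172), a fit that called 261 of 24283 genes (1.07%).

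Nfia (ENSMUSG00000028565.18, GRCm38 chr4:97772734-98118874), an inducer of gliogenesis in radial glia, ran from 1866 through a median of 2291 to 3309 CPM in mutants and from 1366 through 2382 to 3197 CPM in controls. The groups overlapped over nearly their whole range, and mutant 5 was the highest library. The means were 2384 ± 530 and 2328 ± 697 CPM (± SD, n = 6 per group). With litter and sex in the model, the log2 difference was -0.23 (SE 0.161, 95% interval -0.57 to 0.11, edgeR adjusted p = 0.772). Its sign is opposite to that of the raw means, and without those terms it was 0.03.

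Nfix (ENSMUSG00000001911.16, GRCm38 chr8:84699876-84800344), which promotes the step from radial glia to intermediate progenitors, was the most variable member. Mutants ran from 582 through a median of 736 to 1192 CPM and controls from 569 through 1150 to 1554 CPM. Control 2 was the lowest library and controls 1 and 4 the highest. The means were 794 ± 217 and 1116 ± 377 CPM (± SD, n = 6 per group), and the log2 difference of -0.57 had an SE of 0.337 and a 95% interval of -1.34 to 0.19 (edgeR adjusted p = 0.710). The coefficient of variation of Nfix over the 12 libraries was 35.4%, and 93.4% of genes within 2-fold of its level varied less. For Neurod6 that share was 90.3%, for Neurod2 86.3% and for Nfib 52.5%.

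Nfic (ENSMUSG00000055053.18, GRCm38 chr10:81396186-81455635), the member best known from teeth and other tissues outside the brain, was low throughout. Its mutant levels were 25.1, 30.1 and 47.9 CPM at the lowest, median and highest, against 30.9, 41.0 and 48.8 in controls. Mutants 3, 4 and 6 lay below every control, and mutant 2 near the top of the controls. The log2 difference was -0.44 (SE 0.199, 95% interval -0.86 to -0.02, edgeR adjusted p = 0.532), and it was 0.03 in litter 1 alone and -0.72 in litter 2 alone. Its litter by genotype term was -0.78 (SE 0.322, edgeR adjusted p = 0.621). No gene of the 10678 tested was called for that term (0% called), and the term had an unadjusted p under 0.05 in 7.27% of them.

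**Figure D3:**
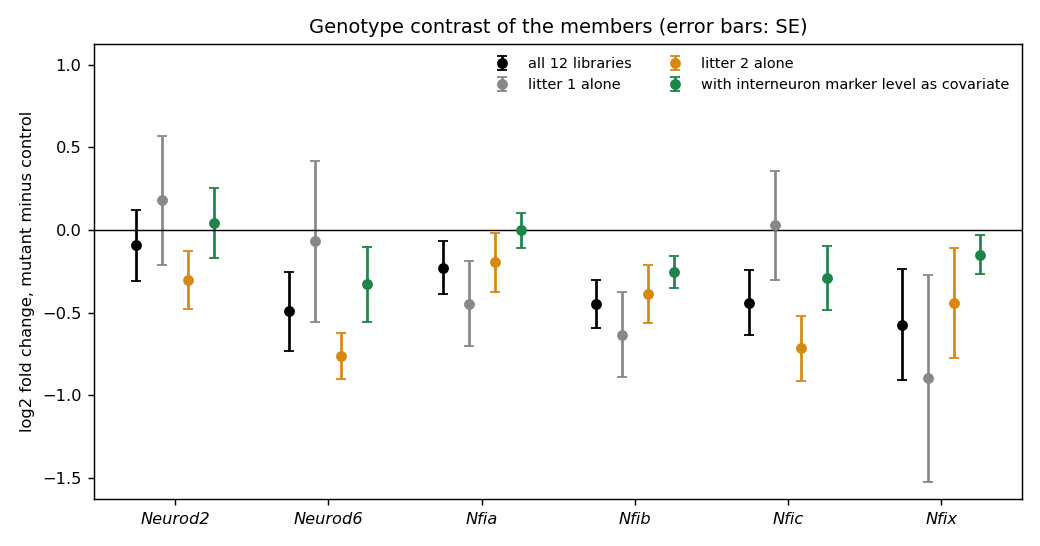
Log2 fold change, mutant minus control (y axis; bars are SE), of the 6 measured genes in all 12 libraries, in each litter alone, and with the interneuron marker level as a covariate. Nfib, Neurod6, Nfix and Nfia stand below 0 in each of these fits, Nfib at -0.45 in all libraries and Nfia only at -0.0029 with the covariate. Neurod2 and Nfic lie on both sides of 0.

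The members were also compared between litters. Nfia stood at 1950 ± 412 CPM in litter 1 and 2762 ± 451 CPM in litter 2 (± SD, n = 6 per group), a log2 difference of 0.55 (SE 0.143, edgeR adjusted p = 0.0682). None of the 6 genes was called between litters, where 1.31% of all genes were, and Nfia and Nfib had an unadjusted p under 0.05, beside 15.4% of all genes. Nfib was 0.29 higher in litter 2 on the log2 scale (SE 0.129, edgeR adjusted p = 0.297). Between the sexes none of the 6 was called, where 1 gene was (0.00937%), with edgeR adjusted p from 0.821 to 0.974.

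The make-up of the NFI family was described by each gene's share of the summed NFI CPM. Nfib held 51.1% ± 1.26 in mutants and 54.6% ± 3.14 in controls (± SD, n = 6 per group), and Nfia 36.3% ± 1.88 and 30.35% ± 3.26. Nfix held 12.1% ± 1.73 and 14.5% ± 2.88. The ratio of Nfia to Nfib, looked at after these values were seen and given no test, was 0.647 and 0.661 in the mutants of litter 1, where controls lay between 0.463 and 0.574. In litter 2 it was 0.728 to 0.756 in mutants and 0.626 and 0.679 in controls. Every mutant thus stood above every control of its litter, as did the ratio to Nfib of 1050 of 10677 genes (9.83%).

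Libraries of the cortex can hold neurons from the ganglionic eminences and striatum, and markers of those cells were read beside the members. The summed CPM of 14 interneuron genes, all of them detected, was 1511 at the lowest, 2308 at the median and 2436 at the highest mutant, and 1318, 1562 and 3180 in controls. Erbb4 alone made up 62.1 to 80.5% of that sum, and without it the 13 others summed to 362, 619.8 and 873 CPM in mutants and 286, 399 and 800.5 CPM in controls. The 15 striatal genes summed to 1688, 2349 and 3764 CPM in mutants and 1329, 2083 and 3376 CPM in controls. Of the genes of these lists that could be tested, none was called. All 12 interneuron and all 7 striatal estimates were positive, beside 50.1% negative over all genes. The genes of a list were measured in the same libraries, so their signs are not separate results.

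Nfix was lower in libraries where the interneuron markers were higher. Against the sum without Erbb4, a form of the list added after seeing the data, its log2 CPM had Pearson r = -0.943 and Spearman rho = -0.937 over 12 libraries (permutation p = 2e-05, Benjamini-Hochberg adjusted over all 10678 genes 0.0305; 0.0377 for rho). No gene tested had a lower r. Of all genes, 0.0749% passed that test with a negative r, and Nfix was the one member that did; 24 relations of members with marker sums were computed. Without control 4 and mutant 6, the 2 libraries farthest from the median, r was -0.914. It was -0.901 within mutants (exact permutation p = 0.00833, n = 6) and -0.963 within controls (exact permutation p = 0.00139, n = 6), and -0.970 and -0.927 within litters 1 and 2. With Erbb4 included r was -0.845 (permutation p = 0.00107, adjusted 0.113), which did not pass; 0.0281% of all genes passed with a negative r.

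Nfib gave r = -0.900 and rho = -0.839 with the same 13 genes (permutation p = 0.00047, adjusted 0.0857), and -0.883 without the 2 farthest libraries. Its r was -0.880 within mutants, -0.902 within controls, -0.942 in litter 1 and -0.891 in litter 2. Nfia gave r = -0.673 and rho = -0.692 (permutation p = 0.0171, adjusted 0.370). For Neurod6 r was -0.584 over all libraries, -0.747 within controls and -0.00436 within mutants, and for Neurod2 it was -0.439. With the 15 striatal genes, the strongest relation was that of Nfix, at r = -0.829 and rho = -0.853 (permutation p = 0.00099, adjusted 0.180); r was -0.607 within mutants and -0.937 within controls, and no gene passed (0% called).

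**Figure D4:**
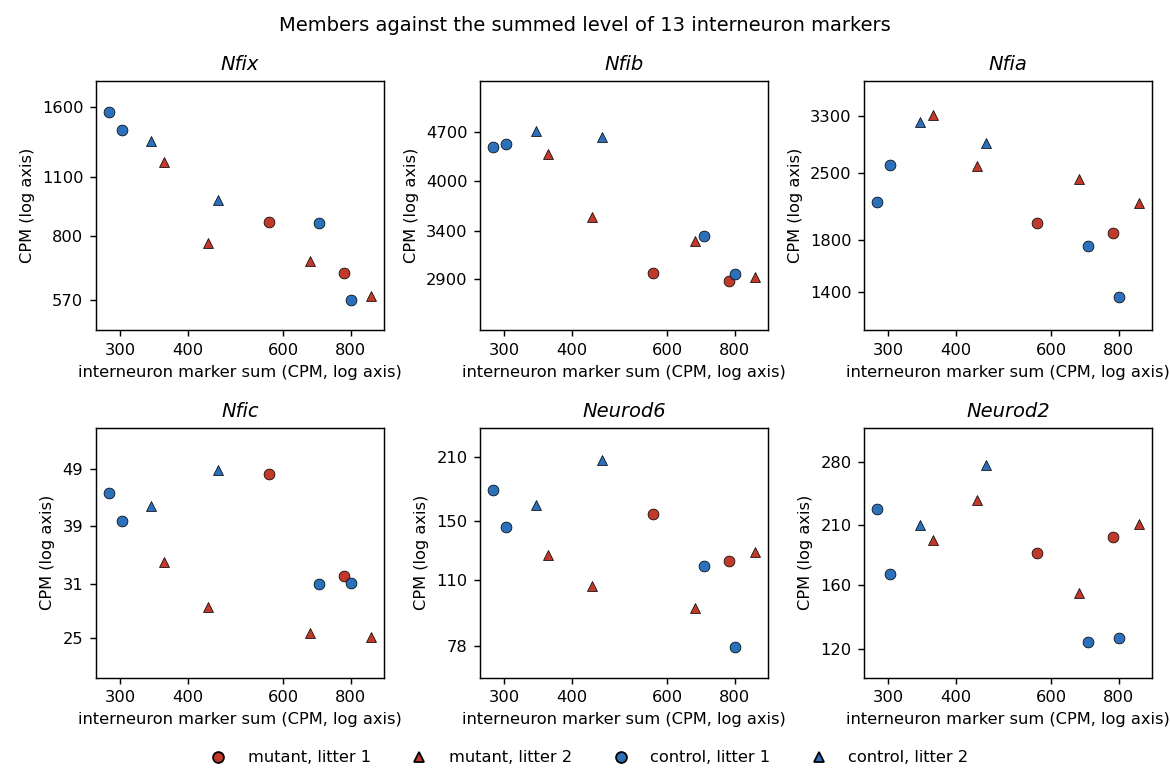
CPM of each measured gene (y axis, log scale) against the summed CPM of 13 interneuron markers (x axis, log scale) in 12 libraries; red is mutant, blue control, circles litter 1 and triangles litter 2. Nfix and Nfib descend along the marker sum in both genotypes (r = -0.943 and -0.900).

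With this interneuron level as a covariate, the Nfix difference between genotypes was -0.15 (SE 0.121, edgeR adjusted p = 0.831), against -0.57 without it. The Nfib difference was -0.26 (SE 0.0982, edgeR adjusted p = 0.459), and those of Nfia and Neurod6 were -0.00 (SE 0.105) and -0.33 (SE 0.227). This interneuron covariate was added after seeing the data. With the planned covariate, the striatal marker level, the difference was -0.30 for Nfix (SE 0.198) and -0.33 for Nfib (SE 0.116). For Nfia it was -0.09 (SE 0.120) and for Neurod6 -0.39 (SE 0.232). What part the marker level has in the genotype differences was not tested beyond these fits.

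Patterns over the 12 libraries were compared by Pearson r of log2 CPM, as a description over genes that share library and depth. Among the members, Nfib and Nfix were most alike (r = 0.885), followed by Neurod6 and Nfic (0.801) and Nfia and Nfib (0.759), while Neurod2 and Neurod6 gave 0.685. Of 8814 genes with a mean of at least 10 CPM, those most like Nfix were Fat4, an atypical cadherin (0.959), Cttnbp2, a cortactin-binding protein (0.950), and Tspan18, a tetraspanin (0.915). For Nfib they were Rspo3, a Wnt pathway agonist (0.937), Tenm4, a teneurin (0.936), and Dpy19l3 (0.913). For Nfia they were Kcnn3, a calcium-activated potassium channel (0.944), Siah3 (0.932) and Foxo6, a forkhead factor (0.924).

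The NeuroD genes had other neighbours. Most like Neurod2 were Bcl7a, itself a BAF complex subunit (0.894), Nup50, a nuclear pore protein (0.887), and Glg1, a Golgi glycoprotein (0.875). Most like Neurod6 were Slc25a23, a mitochondrial carrier (0.920), Fads1, a fatty acid desaturase (0.903), and Ndufa6, a respiratory complex I subunit (0.872). Nfic was nearest Foxk1, a forkhead factor (0.882), Zfp706 (0.877) and Ncoa6, a nuclear receptor coactivator (0.859).

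Genes that work beside these factors were read from 4 lists, and no gene of any of them was called between mutants and controls. In the bHLH cascade of neurogenins, E proteins, Id, Hes and Hey genes, 14 of 20 genes could be tested, 9 estimates were negative and 5 positive, and the median log2 difference was -0.04, beside -0.000885 over all genes. Hey1, a Notch target, had means of 10.4 CPM in mutants and 5.66 CPM for controls (log2 difference 0.86, SE 0.296, edgeR adjusted p = 0.321). Id2, which sequesters E proteins, stood at 44.5 and 63.5 CPM (-0.43, SE 0.161, edgeR adjusted p = 0.372). Nhlh2, a neuronal bHLH factor, stood at 6.84 and 11.3 CPM, and Tcf12, an E protein partner of NeuroD, at 628 and 569 CPM (edgeR adjusted p = 0.624 and 0.794).

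Of the cortical neuron differentiation list 18 of 20 genes were tested, 13 estimates were negative, 6 had an unadjusted p under 0.05 and the median was -0.14. Bcl11a, a zinc finger factor of deep-layer neurons, lay between 602 and 769 CPM in mutants and between 878 and 1281 CPM in controls (log2 difference -0.53, SE 0.130, edgeR adjusted p = 0.108). All its mutants stood below all its controls, as did those of Stim1, an endoplasmic reticulum calcium sensor, at means of 30.0 and 40.5 CPM (-0.41, SE 0.161, edgeR adjusted p = 0.421); of all genes 0.927% showed this. Zbtb18, a repressor needed for cortical neuron maturation, stood at 275 and 367 CPM (-0.40, SE 0.111, edgeR adjusted p = 0.190).

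In the list of NFI targets and gliogenesis genes, 12 of 15 were tested, 10 estimates were negative, 2 had an unadjusted p under 0.05 and the median was -0.20. Apcdd1, a Wnt inhibitor induced with NFIA in early glial cells, gave -0.47 (SE 0.158, edgeR adjusted p = 0.306), and Tnc, an extracellular matrix protein of glia, -0.38 (SE 0.171, edgeR adjusted p = 0.538). The Apcdd1 difference was 0.10 in litter 1 alone and -0.72 in litter 2 alone. From litter 1 to litter 2, Apcdd1 changed by 0.77 (edgeR adjusted p = 0.0123) and Tnc by -1.95 (edgeR adjusted p = 2.15e-05). Of all genes, 1.31% were called between litters. Mmd2, another gene of the NFIA programme, gave -0.41, and Slc1a3, the radial glial glutamate transporter, gave -0.23 (edgeR adjusted p = 0.759 and 0.747).

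Of the commissure genes 23 of 25 were tested, 14 estimates were negative, 2 had an unadjusted p under 0.05 and the median was -0.08. Nrp1, a semaphorin receptor of callosal axons, had means of 278 CPM in mutants and 513 CPM for controls (-0.91, SE 0.270, edgeR adjusted p = 0.295). Its attractive ligand gene Sema3c gave -0.36 (SE 0.154, edgeR adjusted p = 0.489). The Sema3c difference was -0.83 in litter 1 alone and -0.06 in litter 2 alone. From litter 1 to litter 2, Sema3c changed by -0.90 (edgeR adjusted p = 0.00406). The netrin receptors Unc5c and Dcc gave 0.36 and -0.27 (edgeR adjusted p = 0.608 and 0.652).

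**Figure D5:**
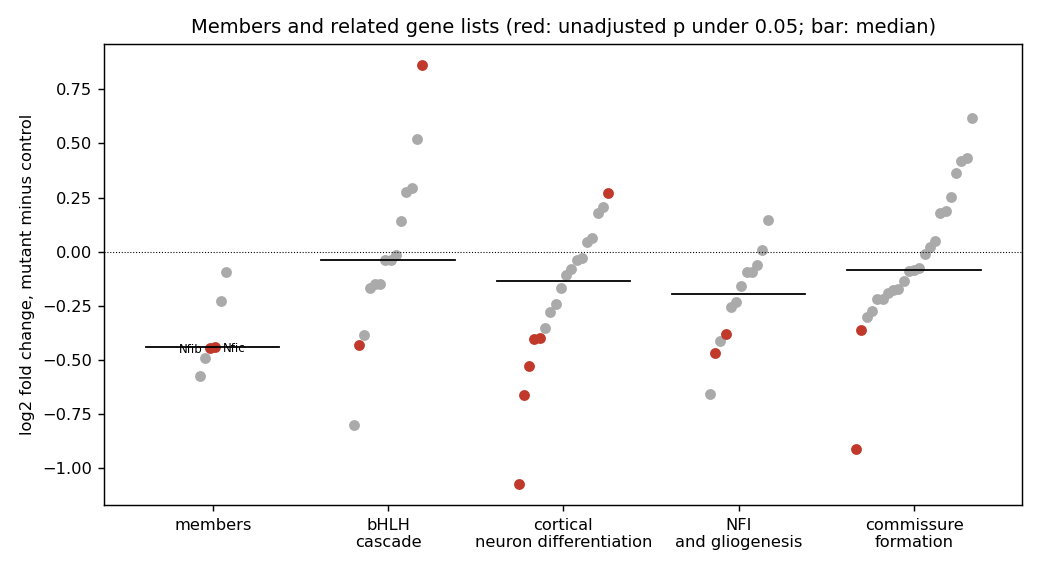
Log2 fold change, mutant minus control (y axis), of each tested gene of the members and of 4 related lists (x axis); red points have an unadjusted p under 0.05, grey points do not, and horizontal lines are list medians. No gene shown passed the adjusted test, and the list medians lie between -0.20 and -0.04, with the members' lower at -0.44.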

How the data were processed

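Cortices at E15.5 were profiled as 12 libraries of ribosomal RNA-depleted total RNA made by ClickSeq, per the labels. The submitters' processing notes name the mm10 build and, with no order or role, STAR 2.5.2a, cutadapt 1.13, HTSeq 0.6.1p1, UMI-tools 0.5.3, edgeR 3.20.9 and bcl2fastq 2.17. The sources used here do not state how tags were collapsed, the counted feature, the strand mode or the annotation. The deposited values are whole-number counts per Ensembl gene. The 5 closing entries that name no gene held 20.7 to 31.6% of counts and were left out. Of 51912 IDs, 47734 matched GENCODE M21 with their version, 3985 without it and 193 not at all.

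From the counts, edgeR 4.0.16 (R 4.3.3; filterByExpr with a minimum count of 10, TMM, robust quasi-likelihood, terms for litter, sex and genotype, 8 residual degrees of freedom) was run on 10678 genes with Benjamini-Hochberg adjustment at 0.05. CPM use TMM-scaled library sizes. DESeq2 1.42.0, limma-voom (limma 3.58.1), other terms, filters and scalings, and leaving out libraries were alternatives. On simulated counts with 10678 genes for this comparison, 98 of 100 genes changed 4-fold and 73 of 100 changed 2-fold were called, with 7 false calls. Correlation p-values came from 100000 permutations and were adjusted over all genes; adjustment over the members alone, as first planned, was dropped. Named genes were the members, Arid1a, the 4 smallest p-values of each related list and the 3 genes most like each member; the tissue markers Tbr1 and Emx1, the nested genes, Erbb4 and Gm11266 are named outside that rule, and 1 list gene that the rule names is not reported here. The members and lists were chosen with earlier results of these data known.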

Additional observations from a re-analysis of the deposited data

How the results depend on the processing

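Over 31 alternatives, Nfib, Neurod6 and Nfix stayed negative in all 31, Nfia and Nfic in 30 and Neurod2 in 25. Nfib ran from -0.63 to -0.26, with an unadjusted p under 0.05 in all 31, and edgeR adjusted p ran from 0.000172 to 0.716; it passed with no filter on low counts (-0.48) only. Neurod6 passed in litter 2 alone (-0.76) only. Neurod2 turned positive without the litter term (0.000228), without litter and sex terms (0.0505), in litter 1 alone (0.18), with striatal markers without Meis2 (0.0189) or interneuron markers without Erbb4 (0.0424) as a covariate, both added after seeing the data, and without control 6. Nfia was 0.0347 without litter and sex terms, and Nfic 0.0273 in litter 1 alone. Leaving out each library in turn gave -0.24 to 0.20 for Neurod2, -0.63 to -0.28 for Neurod6, -0.34 to -0.10 for Nfia, -0.51 to -0.36 for Nfib, -0.63 to -0.22 for Nfic and -0.82 to -0.40 for Nfix. The r of Nfix with interneuron markers passed without Erbb4 (-0.943), not with it. The cause of these shifts was not tested. Calls over all genes ranged from 0 to 199 lower and 0 to 62 higher, beside 17 and 6, and single libraries left out gave 5 to 45 and 0 to 10. The highest counts came with no filter and 0 in both directions without the 2 shallowest libraries, mutants 1 and 4. No paired analysis was possible because replicate numbers here only name libraries; litter is already a term of the model. Depth limits Nfic most, with 21 counts in the shallowest library.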

Other observations

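The ratio of Neurod6 to Neurod2, looked at after its values were seen and given no test, was 0.628 ± 0.123 in mutants and 0.791 ± 0.114 in controls (± SD, n = 6 per group). In litter 2 the mutants lay between 0.454 and 0.640 and the controls at 0.748 and 0.775, while the genotypes overlapped in litter 1. The separation in litter 2 rests on few libraries and was not counted over all genes, so it is not read as a result. The ratio of Nfix to Nfib was 0.199 at the lowest and 0.292 at the highest mutant, against 0.193 and 0.348 among controls.

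Genes of dorsal cortex were read beside the members, and all 10 of the list were tested. Of these, 9 estimates were negative and 1 positive, beside 50.1% negative over all genes. None was called, 3 had an unadjusted edgeR p under 0.05 (8.78% of all genes did), and the median log2 difference was -0.24. Intermediate progenitor genes, 7 of 8 tested, gave 4 negative and 3 positive estimates with a median of -0.11, and their summed CPM was 624 to 816 in mutants and 613 to 830 in controls.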
